A study of Danio rerio with 2 samples.

Results

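Primary spermatocytes (SPC-I) are the germ cells that have entered meiotic prophase, and they were described here from single-cell RNA sequencing of the adult zebrafish testis. Their members are the cells that the study's own annotation calls SPC-I. The copy of that annotation used here is shortened and covers 1999 cells of replicate 1, so cells outside it may have a stage in the full annotation, and 438 of the 1999 were SPC-I (21.9%; exact binomial interval 20.1 to 23.8%, covering counting error only). The deposited libraries held 9980 cell barcodes in all, 3984 in replicate 1 and 5996 in replicate 2. For replicate 2 the annotation was not used here, so each of its cells took the label of most of its 15 nearest annotated cells, which gave 853 SPC-I cells among 3933 staged cells (21.7%) and serves as a check only.

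The study has 1 group, testes of zebrafish (Danio rerio) aged 6 months, with 2 libraries named replicate 1 and replicate 2 and no treatment. The labels call the fish wild type in one field and transgenic in another, and they name no transgene, so which of these holds is not resolved here. The testes came from 2 adult males, and how they map to the libraries is not stated in the labels. The other annotated stages are undifferentiated and differentiated spermatogonia A (SPG-Aun and SPG-Ad), spermatogonia B (SPG-B), secondary spermatocytes (SPC-II), and round and elongated spermatids (SPT-r and SPT-e).

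In a primary spermatocyte the replicated chromosomes are organised along a protein axis held by meiotic cohesin, DNA breaks are made by Spo11, and strands invade the homologous chromosome with the help of the meiotic recombinase Dmc1. The synaptonemal complex then joins the homologs along their length while some breaks mature into crossovers, and in zebrafish the telomeres cluster early at the nuclear envelope in the bouquet arrangement. The meiotic divisions follow, and axonemes are built later for the sperm flagellum.

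All levels below are CPM (the UMIs of a gene summed over the cells of a stage, scaled to a common total so that stages of unequal depth can be compared), where a UMI, or unique molecular identifier, stands for 1 captured RNA molecule. Folds are on the log2(CPM + 1) scale and a gene is called higher or lower at a log2 fold of 1 or more in size in replicate 1. In the shortened copy 1 library holds all members, and the labels come from clusters of the same cells' expression, so no test was run and no p-value is given. The intervals are exact Poisson intervals and cover counting error only.

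SPC-I cells held fewer UMIs per cell than every other stage but SPT-e. They held a median of 6349 UMIs (quartiles 4915.25 to 7840.5) and 2444 genes per cell in replicate 1, and 5932 UMIs and 2398 genes in replicate 2. The medians of SPG-Aun and SPG-Ad were 10314.5 and 13207.5 UMIs in replicate 1, those of SPG-B, SPC-II and SPT-r 7461.5, 6952 and 7997.5, and that of SPT-e 1374. The mean of the library medians in SPC-I was 6140 ± 295 UMIs (SD, n = 2). Over all members the counts came to 2990412 UMIs in replicate 1 and 5707639 in replicate 2. The median share of mitochondrial UMIs was 1.85% in replicate 1 and 1.71% in replicate 2. The libraries share 8 barcodes.

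The markers were high in SPC-I, which is no independent check of the label. The study assigned SPC-I by high sycp3 and pcna, and its own list for SPC-I holds sycp3 and dmc1. The other assigning gene, pcna, had a log2 fold of -0.30 against the mean of the other stages in replicate 1. The axis protein gene sycp3 (ENSDARG00000013438.9), which builds the lateral element of the synaptonemal complex, stood at 4737 CPM in SPC-I of replicate 1 (interval 4660 to 4816) and 4788 CPM in replicate 2, against means over the other 6 stages of 982 and 934 CPM. The meiotic recombinase gene dmc1 (ENSDARG00000055883.6) stood at 1903 CPM in replicate 1 (interval 1854 to 1954) and 1576 CPM in replicate 2, against 277 and 196 CPM in the other stages. For meiob (ENSDARG00000062442.8), whose product binds single-stranded DNA at recombination sites, the SPC-I levels were 233 CPM (interval 216 to 251) and 133 CPM, against 27.2 and 15.6 CPM. Each of sycp3, dmc1 and meiob was highest in SPC-I in both libraries.

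The crossover factor gene tex11 (ENSDARG00000078995.4) stood at 354 CPM in SPC-I of replicate 1 (interval 333 to 376) and 304 CPM in replicate 2, against 50.6 and 43.3 CPM in the other stages. Along the stages from SPG-Aun to SPT-e its levels in replicate 1 were 24.2, 47.1, 85.5, 354, 88.8, 23.3 and 34.6 CPM. The next highest stage in replicate 1 was SPG-B for sycp3 and meiob and SPC-II for dmc1, while the SPG-B and SPC-II levels of tex11 changed order in replicate 2, with 104 and 57.2 CPM. The levels of meiob differed most between the libraries in SPC-I, and its order over the stages still placed SPC-I on top in each.

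**Figure D1:**
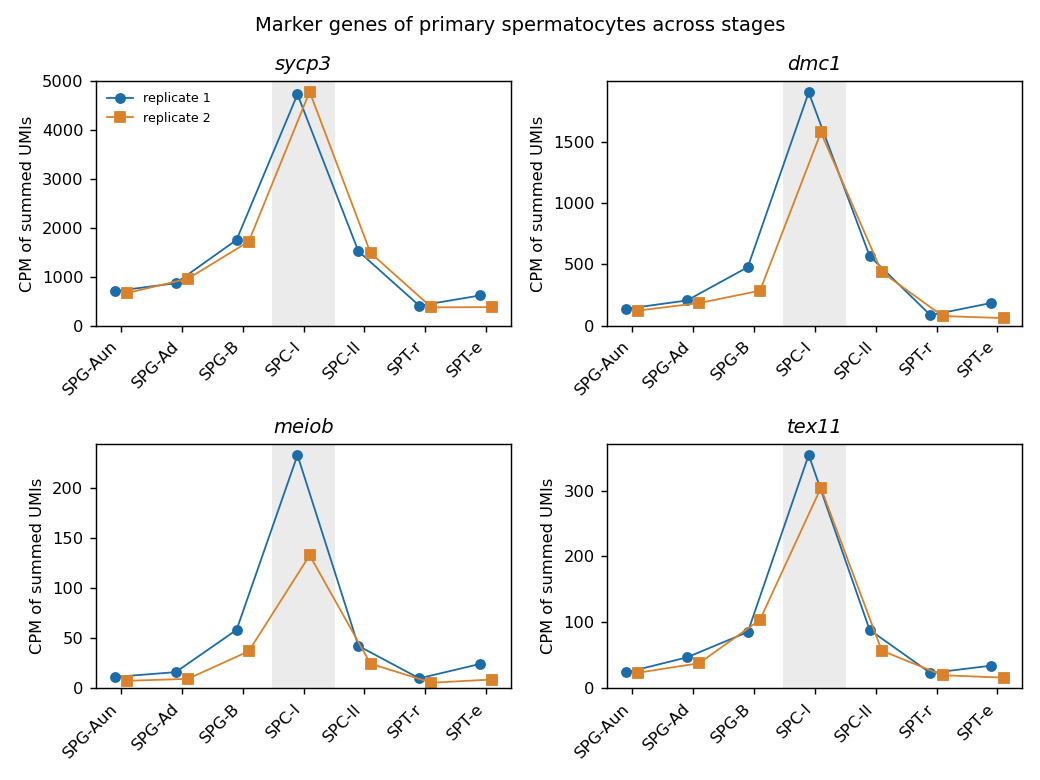
Level of sycp3, dmc1, meiob and tex11 in each stage, as CPM of summed UMIs (y axis, from 0) over the stages in order of differentiation (x axis); circles are replicate 1 with the study's labels, squares replicate 2 with transferred labels, and SPC-I is shaded. Every curve peaks in SPC-I, where sycp3 reaches 4737 and 4788 CPM and meiob 233 and 133 CPM.

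Single cells carried the markers widely. At least 1 sycp3 UMI was found in 432 of 438 SPC-I cells of replicate 1 (98.6%), and the 6 cells without one held between 519 and 1234 UMIs each. The share was 97.8 to 99.7% in the spermatogonial stages and 99.3% in SPC-II, so it does not set SPC-I apart. All 4 markers were found together in 271 SPC-I cells (61.9%), against 20 of 135 SPC-II cells (14.8%) and 26 of 178 SPG-B cells (14.6%). In replicate 2 these shares were 43.4% in SPC-I, 5.82% in SPC-II and 13.7% in SPG-B. With every cell thinned to 1000 UMIs, which left out 13 SPC-I, 4 SPG-B and 148 SPT-e cells of replicate 1 as too shallow, a dmc1 UMI remained in 346 of 425 SPC-I cells (81.4%; 96.6% unthinned), against 33.3% of SPG-B, 45.9% of SPC-II and 8.11% of SPT-r cells. For sycp3 the thinned shares were 97.9% in SPC-I, against 79.9% in SPG-B and 77.8% in SPC-II. For meiob the thinned shares were 21.6% in SPC-I (71.0% unthinned), against 8.62% in SPG-B, 6.67% in SPC-II and 1.35% in SPT-r. As a level of free RNA, a UMI of insl3, a hormone gene of Leydig cells that germ cells should lack, was found in 3.29% of thinned SPC-I cells (24.7% unthinned, median 6349 UMIs) and in 6.76% of SPT-r cells (44.6% unthinned, median 7997.5 UMIs). The thinned meiob share in SPT-r lay below that of insl3 in the same cells. Whether the insl3 level holds for other genes, and whether the meiob UMIs in SPT-r are free RNA, was not tested. In replicate 2 insl3 was found in 11.4% of thinned SPC-I cells (45.5% unthinned, median 5932 UMIs). The thinned SPC-I shares there were 75.3% for dmc1 and 15.3% for meiob, the latter little above that of insl3. In thinned SPG-B cells of replicate 2 the shares were 4.44% for meiob and 5.8% for insl3.

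Markers of other testis cells were checked by list, and their part in the results below was not tested. The 5 Leydig genes together made 52.5 CPM in SPC-I, against 25.7 to 87.9 CPM in the other stages of replicate 1, with hsd3b1 at 0 UMIs. The 8 Sertoli genes made 3.01 CPM, with amh, cxcl12b and inha at 0, and the 3 red blood cell genes 2.34 CPM. The 9 immune genes made 72.2 CPM, against 46.2 to 123 CPM in the other stages, and the 4 stroma genes 25.7 CPM, against 6.59 to 27.7 CPM. In replicate 2 SPC-I had the highest sums of both, with 104 CPM for the immune genes, against 33.5 to 77.9 CPM, and 27.7 CPM for stroma, above every other stage. In replicate 2 the Leydig genes made 109 CPM in SPC-I, and up to 1089 CPM in another stage, SPC-II, so the comparison with SPC-II in that library includes Leydig RNA.

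Of 8465 genes with a mean of at least 10 CPM over the stages, 676 (7.99%) were higher in SPC-I than the mean of the other 6 stages and 1821 (21.5%) were lower. In replicate 2 the numbers were 600 and 1667, of which 491 and 1488 were called in both. Counted as UMIs per cell instead of CPM, 207 were higher and 2594 lower, and the median over all genes was -0.52 instead of -0.10 on the log2 scale. A level at least 1 log2 unit above the highest other stage was reached by 57 genes (0.673%), by 50 in replicate 2 and by 41 in both.

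Among the genes furthest above every other stage in replicate 1 were crybb1 (log2 fold over the next stage 2.17 in replicate 1 and 1.86 in replicate 2), known as a lens crystallin gene, tex11 (1.99 and 1.54), meiob (1.98 and 1.81), the recombination repair gene rad51b (1.91 and 1.45), ccnb1ip1 (1.84 and 1.59), whose mammalian product HEI10 marks crossover sites, and dmc1 (1.74 and 1.84). The homeobox gene nkx3-2, the kinase gene cdk2, the coatomer gene copz1, sycp3, ccdc73, the Fanconi anaemia gene fanci, the chromatin remodeller gene atrx, the bromodomain ATPase gene atad2 and the checkpoint clamp gene hus1 completed the 15 named, with log2 folds of 1.34 to 1.57 in replicate 1 and 1.00 to 1.57 in replicate 2. For atrx the levels were 1048 CPM in SPC-I of replicate 1 and 886 CPM in replicate 2, against means of 255 and 227 CPM in the other stages. For crybb1 they were 196 and 185 CPM, against 25.8 and 29.8 CPM in the other stages.

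The 6 lists of meiotic genes were high as a group. Of their 60 members with 1 identifier, 54 passed the filter, and 36 of these were higher in SPC-I than the mean of the other stages, 3 were lower and the median log2 fold was 1.49, beside 7.99% higher and a median of -0.10 over all genes. In replicate 2 these were 37, 3 and 1.31. SPC-I was the stage of highest level for 40 of the 54 in replicate 1 and 37 in replicate 2, beside 12.8% of all genes in replicate 1. These lists were chosen with earlier results of these data known.

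**Figure D2:**
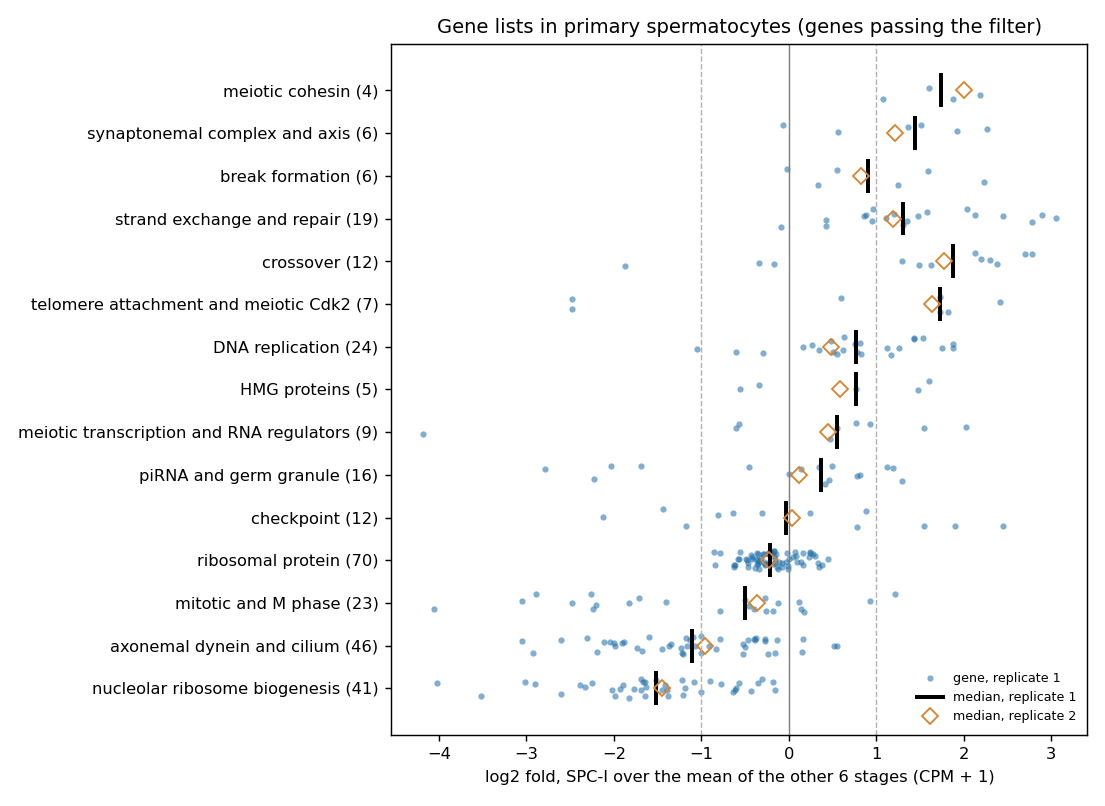
Log2 fold of SPC-I over the mean of the other 6 stages (x axis) for each gene of 15 lists that passed the filter (points, replicate 1; number of genes in brackets), with the list's median in replicate 1 (black bar) and replicate 2 (open diamond); dashed lines mark a log2 fold of 1 in either direction. The cohesin and crossover lists sit furthest right, with medians of 1.74 and 1.88 in replicate 1, and nucleolar ribosome biogenesis furthest left, at -1.52.

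Chromosome axis genes were higher in SPC-I than in the other stages, and the gene for the bridge between axes was near their mean. In the synaptonemal complex list 4 of 6 genes were higher (median log2 fold 1.44 in replicate 1 and 1.21 in replicate 2), among them sycp2 (1.93), which forms the axis with sycp3, hormad1 (1.37), an axis protein gene, and trip13 (1.52), whose ATPase removes Hormad proteins. The transverse filament gene sycp1 had its SPC-I level at 1858 CPM in replicate 1 and 2382 CPM in replicate 2, against 4153 and 4096 CPM in SPC-II and 249 and 162 CPM in SPG-B. The central element gene syce2 likewise had more in SPC-II, with 1323 CPM in SPC-I, against 1932 CPM in SPC-II and 603 CPM in SPG-B of replicate 1. In both libraries sycp3 thus had its highest level in SPC-I, while sycp1 had more in SPC-II than in SPC-I. The levels of sycp1 and syce2 in the spermatids are not given here.

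All 4 meiotic cohesin genes that passed the filter were higher than the mean of the other stages by CPM, and 3 of 4 with TMM factors and by UMIs per cell. Against SPG-B 1 of the 4 was higher in replicate 1 (median 0.76) and 2 in replicate 2 (median 0.89). None was called against SPG-B with TMM factors or by UMIs per cell. Against SPC-II 3 of the 4 were higher in each library. The kleisin gene rec8b stood at 448 CPM in SPC-I of replicate 1 and 400 CPM in replicate 2, against 97.7 and 81.8 CPM in the other stages. The log2 folds in replicate 1 were 2.19 for rec8b, 1.88 for smc1b, 1.61 for stag3 and 1.08 for rad21l1. The paralog rec8a had 5 UMIs and did not pass. Among general cohesin genes smc3, which the meiotic complex shares, was higher (1.34, a call lost by UMIs per cell), while the mitotic kleisin gene rad21a had 93.3 CPM in SPC-I, against a range of 92.3 to 330 CPM over the other stages (log2 fold -1.06, and -0.78 in replicate 2).

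Of the genes for break formation, 3 of 6 were higher (median 0.90). The break enzyme gene spo11 had 289 CPM in SPC-I of replicate 1 and 266 CPM in replicate 2, close to its 273 CPM in SPC-II of replicate 1, against 77.6 CPM in SPG-B. Larger folds over the other stages belonged to ccdc36, the gene of the break factor Iho1, with a log2 fold of 2.24, and ankrd31, with 1.60. The histone methyltransferase gene prdm9, which places breaks in mammals, had 21.1 CPM in SPC-I, against 20.8 to 24.3 CPM in the 3 spermatogonial stages.

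The largest fold in the meiotic lists, that of meiob, was in strand exchange. Of 19 genes in that list 12 were higher and none lower in replicate 1 (median 1.31), and 13 in replicate 2. By UMIs per cell 7 were higher (median 0.86). The log2 folds were 3.05 for meiob, 2.89 for mcmdc2, 2.78 for dmc1, 2.45 for swsap1 and 2.13 for psmc3ip, which helps Dmc1 with mnd1. The damage kinase gene atm had the smallest fold, -0.09.

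For crossover genes 9 of 12 were higher and 1 was lower (median 1.88, and 1.78 in replicate 2). The MutS gene msh4, whose product forms a clamp with Msh5 on crossover intermediates, stood at 145 CPM in SPC-I of replicate 1 and 94.1 CPM in replicate 2, against 17.1 and 6.98 CPM in SPG-B. For msh5 the levels were 221 and 230 CPM, against 17.1 and 10.9 CPM in SPG-B. The log2 fold of rnf212b, a gene of the Zip3 family, over the other stages was 2.38 in replicate 1 and 2.25 in replicate 2, and hfm1, the gene of a crossover helicase, was likewise higher. Some late genes had their highest level in later stages. The MutL gene mlh3, which acts in crossover resolution, had 29.4 CPM in SPC-I, against 98.0 CPM in SPC-II, and the nuclease gene mus81 had 26.1 CPM, against 196 CPM in SPT-r (log2 fold over the other stages -1.87, and -2.40 in replicate 2).

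Of the 7 genes of telomere attachment and meiotic Cdk2, 4 were higher and 2 lower in both libraries. The genes cdk2 (log2 fold 2.42) and its activator spdya (1.82), which act together at meiotic telomeres, and terb2 and majin (1.73 each), which tie telomeres to the inner nuclear membrane, were the higher ones. The nuclear envelope genes sun1 and sun2, whose products link telomeres to the cytoskeleton, were lower (-2.48 each). For sun1 the levels were 12.7 CPM in SPC-I of replicate 1 and 17.3 CPM in replicate 2, against 235 and 294 CPM in SPT-e, and 5.26 and 3.88 CPM in SPG-B. It was thus above its SPG-B level and below its spermatid level.

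Among genes of meiotic transcription and RNA control, rbm46 (2.03) and taf4b (1.54) were higher of 9. The testis factor gene mybl1 had 141 CPM, with a log2 fold of 0.93 in replicate 1 and 1.21 in replicate 2. The ciliary factor gene rfx3 had 15.0 CPM, against 1111 CPM in SPT-e (-4.18). Of the 16 piRNA and germ granule genes 3 were higher (tdrkh, pld6 and asz1) and 4 lower (median 0.37), beside 7.99% and 21.5% of all genes. In replicate 2, 2 of the 16 were higher and 4 lower (median 0.12). By UMIs per cell none was higher and 5 were lower (median -0.30). The germ cell helicase gene ddx4 stood at 365 CPM in SPC-I of replicate 1 and 441 CPM in replicate 2, against 1551 and 1506 CPM in SPG-B, and tdrd1 at 16.1 CPM, against 165 CPM in SPG-Ad. The piRNA-binding gene piwil1 had 1245 CPM in SPC-I, against 1284 CPM in SPG-B.

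The DNA damage clamp genes rad9b (2.45) and hus1 (1.90) and the kinase gene chek1 (1.54) were the higher ones of 12 checkpoint genes. Another 3 were lower, among them h2ax (-1.44) and rad9a (-1.18), beside 7.99% higher and 21.5% lower over all genes. In replicate 2, 4 checkpoint genes were higher and 2 lower. By UMIs per cell 2 were higher and 6 lower (median -0.43). For rad9b the levels were 288 CPM in SPC-I of replicate 1 and 218 CPM in replicate 2, against 52.1 and 45.6 CPM in the other stages. For rad9a they were 15.4 and 19.4 CPM, against 71.6 CPM in SPT-r of replicate 1, so the paralogs of this clamp subunit differed in their stage.

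Of the 5 high mobility group genes that passed, 2 were higher (median 0.77, and 0.10 by UMIs per cell), beside 7.99% of all genes. The chromatin protein gene hmgb1a stood at 6179 CPM in SPC-I of replicate 1 and 6763 CPM in replicate 2, against 2027 and 2210 CPM in the other stages, and hmgb1b at 3854 and 4298 CPM, against 1381 and 1496 CPM. These paralogs may share reads, and reads that match both could be lost or split. The nucleosome-binding gene hmgn2 had 3609 CPM in SPC-I, against 7832 CPM in SPG-B. Against SPG-B none of the 5 was called higher and 1 was lower in each library (median -0.18 in replicate 1 and -0.49 in replicate 2). The ratios of SPC-I over SPG-B in replicates 1 and 2 were 1.71 and 1.81 for hmgb1a and 1.25 and 1.29 for hmgb1b. All 8 genes that the study lists for SPC-I were higher in both libraries (median log2 fold 2.14 and 2.18), which is not independent evidence since that list was chosen on these cells.

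The genes lowest against the mean of the other stages had their highest levels in SPT-e. The adhesion gene cadm3 had 3 UMIs in SPC-I of replicate 1 (1.00 CPM, interval 0.207 to 2.93), against 379 CPM in SPT-e, and nrm, a nuclear envelope gene, had 3.01 CPM, against 529 CPM. For kcnn4, a potassium channel gene, and pimr177, 0 UMIs were counted in SPC-I of replicate 1, so their levels were at least 33.4-fold and 33.0-fold lower than the mean of the other stages, from a floor of 3 UMIs. In replicate 2 they had 14 and 5 UMIs. The other 6 by the same rule were pimr93 and 5 genes with clone-based names (si:ch211-242f23.3, si:dkeyp-22c6.1, si:ch211-195h23.4, si:dkey-151m22.8 and si:ch211-226m16.3).

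Against SPG-B, the last spermatogonial stage, 1752 genes (20.7%) were higher in SPC-I and 955 (11.3%) lower, with 1474 and 748 called in both libraries. By UMIs per cell the split was 1293 and 1542. Of the axonemal and ciliary genes 39 of 46 were higher and 1, cfap100, was lower (median 2.60, and 3.18 in replicate 2, beside 0.14 and 0.15 over all genes). The dynein regulator gene iqcg had 198 CPM in SPC-I, against 3.29 CPM in SPG-B (593 and 5 UMIs; ratio 60.3, counting interval 25.7 to 186). The gene clrn1 had 145 UMIs in SPC-I and 0 in SPG-B, at least 24.6-fold higher. The gene cfap99 had 218 and 1 UMIs (ratio 111, interval 19.7 to 4397), and spata45, si:dkeyp-50b9.1 and si:dkey-11c5.11 completed the 6.

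The genes lowest against SPG-B included regulators of mitosis. Cyclin B1 (ccnb1) stood at 86.6 CPM in SPC-I of replicate 1 and 75.7 CPM in replicate 2, against 1069 and 926 CPM in SPG-B. The anaphase activator gene cdc20 had 56.5 CPM, against 838 CPM, and the cyclin gene ccnb3 13.4 CPM, against 266 CPM. The phosphatase gene cdkn3 had 6 and 161 UMIs (ratio 0.0189, interval 0.00685 to 0.0421), and hnrnpul1 and cdca7b completed the 6. Against SPG-B 11.3% of all genes were lower and 20.7% higher. Of the 23 mitotic genes 7 were lower than in SPG-B and 1, ccna1, the cyclin A gene used in mouse meiosis, was higher. That call rests on 48 and 4 UMIs (ratio 6.1, interval 2.23 to 23.3, and 2.6 in replicate 2, interval 1.55 to 4.65). Against the mean of the other stages 10 of the 23 were lower, ccna1 among them (-2.26), and 1, the condensin gene ncapd2, was higher (1.21). Of all genes 21.5% were lower and 7.99% higher than that mean. Topoisomerase top2a had 729 CPM, against 937 CPM in SPG-B.

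Against SPC-II, 1028 genes (12.1%) were higher in SPC-I and 1855 (21.9%) lower, with 686 and 1241 called in both libraries. This split turned with the scaling: with TMM factors 1587 were higher and 1159 lower, and the median over all genes was 0.09 instead of -0.23. By UMIs per cell 744 were higher and 2405 lower. Against the mean of the other stages 9 of 24 DNA replication genes were higher and 1 lower (median 0.77), beside 7.99% and 21.5% of all genes. For the replication genes these were 7 and 3 in replicate 2 (median 0.48), and 2 and 3 by UMIs per cell (median 0.01). Against SPC-II they were higher in 20 of 24 cases and lower in none (median 1.78, 1.93 in replicate 2, 2.11 with TMM factors and 1.55 by UMIs per cell). The thymidylate synthase gene tyms had 199 CPM in SPC-I, against 12.9 CPM in SPC-II, and the helicase gene mcm5 306 CPM, against 35.1 CPM.

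The segmentation gene ripply2 had 341 CPM in SPC-I, against 9.25 CPM in SPC-II (1019 and 10 UMIs, a ratio of 36.9), and the ratio in replicate 2 was 25.5 (interval 16.4 to 41.9). The replication clamp partner gene pclaf had 1010 CPM, against 51.8 CPM. The gene arf4b had 145 UMIs in SPC-I and 0 in SPC-II, at least 17.5-fold higher, and actc1b, vip and apela, each with 1 UMI in SPC-II, had ratios of 49.9 (interval 8.81 to 1985), 45.6 (8.03 to 1814) and 40.1 (7.06 to 1600). In the other direction got1l1 had 6 UMIs in SPC-I and 47 in SPC-II (ratio 0.0462, interval 0.0161 to 0.108), and ccdc88aa, shisa7b, kcnk2b and si:dkeyp-22c6.1 had between 1 and 10 UMIs in SPC-I of replicate 1. Ciliary genes were lower in 42 of 46 cases (median -1.56, -1.44 in replicate 2, and -1.22 with 30 lower with TMM factors), so SPC-I lay between SPG-B and SPC-II in them. Ribosomal protein genes were higher in 36 of 70 cases against SPC-II (median 1.04), in 17 of 70 in replicate 2 and in 65 with TMM factors, and lower in 17 against SPG-B (median -0.81), in 27 with TMM factors and in 48 by UMIs per cell.

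**Figure D3:**
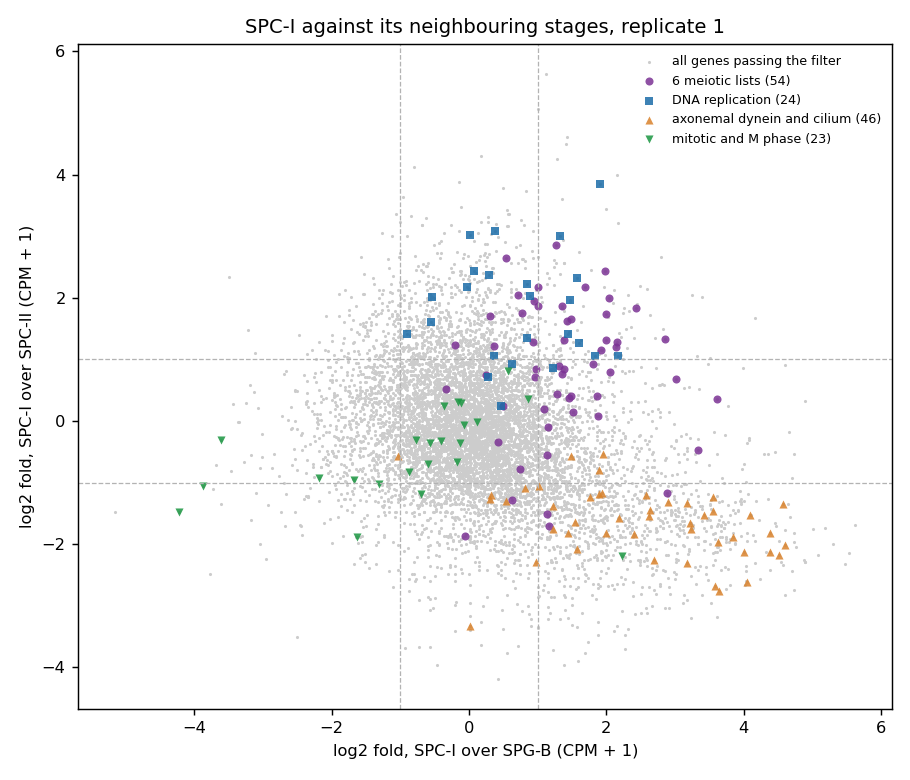
Log2 fold of SPC-I over SPG-B (x axis) and over SPC-II (y axis) for the 8465 genes that passed the filter in replicate 1 (grey) and for 4 groups of listed genes (colours, number of genes in brackets); dashed lines mark a log2 fold of 1. Of the 24 replication genes 20 lie past 1 on the y axis, 39 of 46 ciliary genes lie past 1 on the x axis, and 7 of 23 mitotic genes lie past -1 on it.

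Of 41 nucleolar genes for ribosome assembly that passed, 30 were lower than the mean of the other stages and none higher. The median was -1.52, and -1.45 in replicate 2, and of all genes 21.5% were lower and 7.99% higher. Against SPG-B 8 of the 41 were lower and 1 higher (median -0.34), beside 11.3% and 20.7% of all genes. By UMIs per cell 16 were lower than in SPG-B (median -0.65). The list took 0.093% of UMIs in SPC-I, against 0.146% in SPG-B of replicate 1. The shares of SPC-II and SPT-r lay close to that of SPC-I, at 0.0987% and 0.0934%, and SPT-e held 0.126%. The largest shares were those of SPG-Aun and SPG-Ad, 0.636% and 0.565%, which raise the mean of the other stages. Against SPC-II 7 of the 41 genes were higher and 5 lower (median 0.01), beside 12.1% and 21.9% of all genes (median -0.23). The low level was thus not particular to SPC-I. The nucleophosmin gene npm1a had 11.0 CPM in SPC-I, against 22.4 CPM in SPG-B and 565 CPM in SPG-Aun. The snoRNP gene nop56 had 25.1 CPM, against 604 CPM in SPG-Aun. For imp4 the level was 63.9 CPM in SPC-I, against 639 CPM in SPT-e.

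The members were not uniform. The study's clusters 4 and 0 split them, with 158 and 280 cells in replicate 1 (36.1 and 63.9%) and 394 and 459 cells in replicate 2 (46.2 and 53.8%). Median UMIs were 5835.5 in cluster 4 and 6506 in cluster 0 of replicate 1, and 6149 and 5619 in replicate 2, so neither was deeper in both libraries. The 6 SPC-I cells of replicate 1 called doublets were all in cluster 4, and in replicate 2 there were 28 in cluster 4 and 15 in cluster 0. Since the clusters were drawn from the same expression, the differences are a description. In cluster 4, 1609 genes (19.0%) were higher than in cluster 0 and 710 (8.39%) lower, and 1080 and 397 were called in both libraries. Without the doublets 1659 were higher and 813 lower.

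Within SPC-I, replication genes were higher in cluster 0 than in cluster 4, and spermatogonia A held about as much as cluster 0. Of summed UMIs, the replication list took 0.598% in cluster 0 of replicate 1, against 0.572% in SPG-Aun and 0.528% in SPG-Ad. In replicate 2 these shares were 0.489%, 0.55% and 0.523%. Over all SPC-I cells the list took 0.477% in replicate 1 and 0.351% in replicate 2, below SPG-Aun and SPG-Ad in each. In cluster 4, 15 of 24 DNA replication genes were lower and none higher, in both libraries (median -1.35 and -1.50, beside 0.25 over all genes). The sliding clamp gene pcna stood at 64.8 CPM in cluster 4 of replicate 1 and 57.8 CPM in replicate 2, against 521 and 377 CPM in cluster 0, while over all SPC-I it had 368 CPM, against 349 CPM in SPG-B and 1367 CPM in SPG-Ad. For pclaf the levels were 77.8 and 82.8 CPM in cluster 4, against 1479 and 1316 CPM in cluster 0. The share of a cell's UMIs on the replication list had a median of 0.224% in cluster 4 (quartiles 0.163 to 0.279%), against 0.587% in cluster 0 (0.437 to 0.738%).

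Some cohesin, strand exchange and checkpoint clamp genes were lower in cluster 4. The cohesin gene rec8b had 238 CPM in cluster 4 of replicate 1 and 249 CPM in replicate 2, against 554 and 546 CPM in cluster 0, and stag3 had 9.98 and 7.14 CPM, against 34.7 and 48.2 CPM. The log2 folds of cluster 4 over cluster 0 in replicate 1 were -1.09 for meiob, -1.47 for hus1, -1.24 for rad9b and -3.75 for ripply2. Of the 19 strand exchange genes 5 were lower in cluster 4 and none higher in replicate 1 (median -0.40). In replicate 2, 6 were lower and none higher (median -0.44). Of the 12 crossover genes none was lower and 1 was higher in replicate 1. Some single genes were nearly even, with -0.18 for dmc1, -0.04 for cdk2, 0.12 for msh4 and 0.19 for msh5. Over the 54 meiotic genes 3 were higher in cluster 4 and 8 lower, beside 19.0% and 8.39% of all genes.

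**Figure D4:**
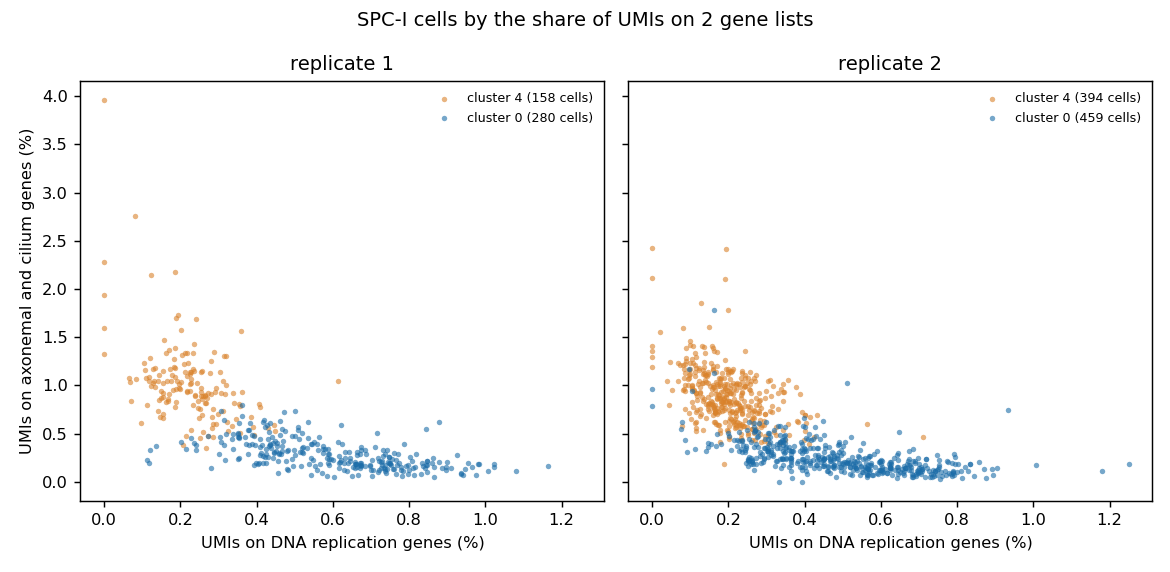
Share of each SPC-I cell's UMIs on genes of the axonemal and ciliary list (y axis, percent) against its share on the DNA replication list (x axis, percent), for cluster 4 and cluster 0 in replicate 1 (left) and replicate 2 (right). Cluster 4 cells sit at the upper left, with medians of 0.968% on the ciliary list and 0.224% on the replication list in replicate 1, and cluster 0 cells at the lower right, with 0.251% and 0.587%, and the clouds meet.

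Ciliary genes were higher in cluster 4. Of 46 ciliary genes 39 were higher in cluster 4 in each library (median 1.58 and 1.82), and 1 was lower in replicate 2. The axonemal gene cfap45 had 249 CPM in cluster 4, against 14.6 CPM in cluster 0 of replicate 1. The gene ppp1r42 had 276 CPM, against 14.6 CPM, and iqcg 521 CPM, against 35.7 CPM. Of the 6 synaptonemal complex genes 1, sycp1, was higher in cluster 4. It stood at 3340 CPM in cluster 4 of replicate 1 and 3449 CPM in replicate 2, against 1111 and 1355 CPM in cluster 0. The checkpoint mediator gene mdc1 stood at 149 and 113 CPM, against 30.7 and 31.0 CPM, and the cilium factor gene foxj1b at 49.9 and 55.3 CPM, against 17.1 and 10.7 CPM.

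By the rule of size the genes furthest apart had few counts in cluster 0. The gene iqca1 had 65 UMIs in cluster 4 and 1 in cluster 0 of replicate 1 (ratio 129, interval 22.3 to 5168), and 124 and 8 in replicate 2 (ratio 16.1, interval 7.91 to 38.1). For map1ab the UMIs were 61 and 1 (ratio 121, interval 20.9 to 4855), and for igfbp3 27 and 0, at least 17.8-fold higher in cluster 4. The haem oxygenase gene hmox1, heatr4 and si:dkey-223p19.2 completed the 6. In the other direction, beside pclaf and ripply2, the genes gpr19 and gcat had 0 UMIs in cluster 4 of replicate 1 (at least 5.88-fold and 4.20-fold lower), klhl8 had 1 UMI, against 49 in cluster 0 (ratio 0.0405, interval 0.001 to 0.236), and smarcd2 3, against 91 (ratio 0.0654, interval 0.0132 to 0.197).

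The clusters took up different places next to the neighbouring stages. Over the 8465 genes the median absolute log2 difference of cluster 4 was 0.86 from SPG-B and 0.463 from SPC-II in replicate 1, and that of cluster 0 was 0.597 from SPG-B and 0.875 from SPC-II. In replicate 2 cluster 4 was at 0.836 and 0.415 and cluster 0 at 0.613 and 0.829. Cluster 0 was thus closer to SPG-B and cluster 4 to SPC-II in both libraries.

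**Figure D5:**
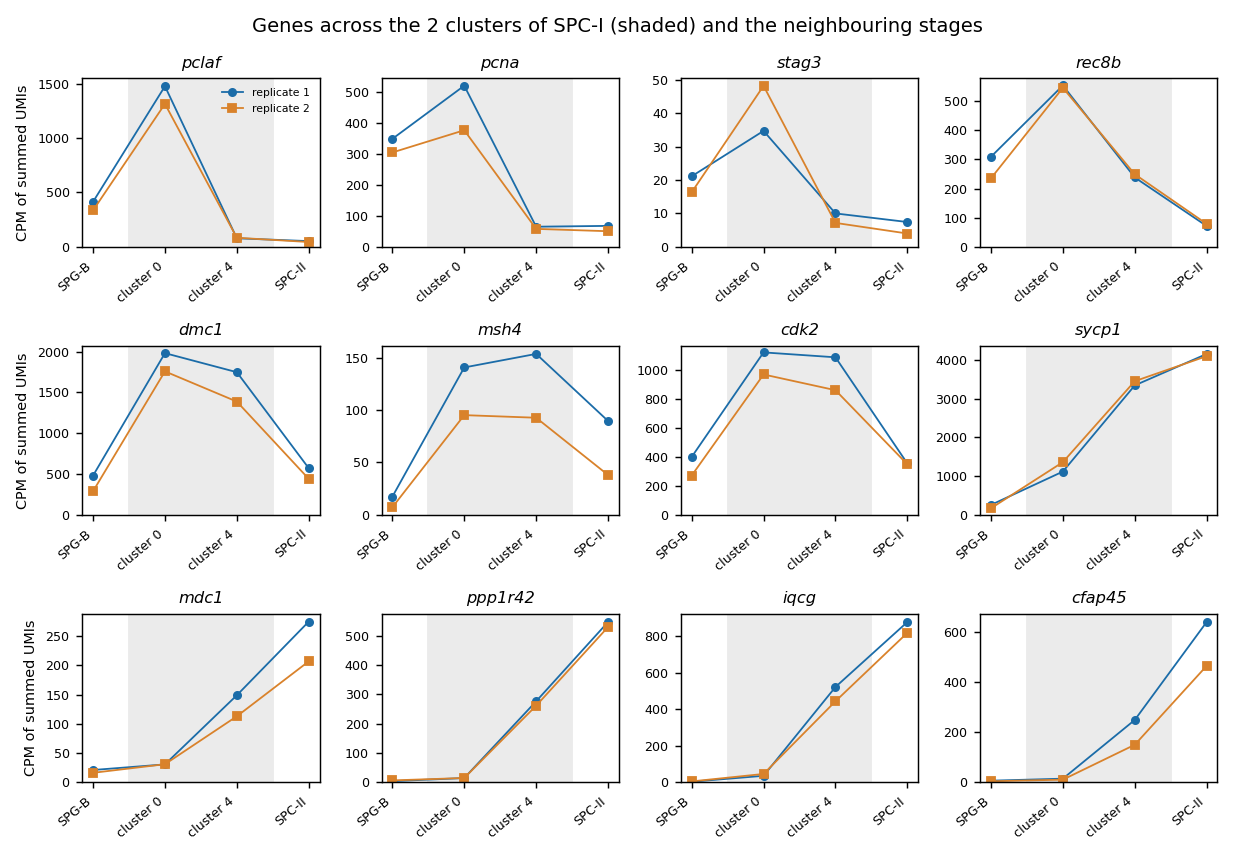
Level of 12 genes as CPM of summed UMIs (y axis, from 0) in SPG-B, in clusters 0 and 4 of SPC-I (shaded) and in SPC-II (x axis), for replicate 1 (circles) and replicate 2 (squares). The top row has its highest level in cluster 0, dmc1, msh4 and cdk2 are high in both clusters, and sycp1, mdc1, ppp1r42, iqcg and cfap45 have their highest level of these in SPC-II.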

How the data were processed

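Testes of zebrafish were sequenced as 2 single-cell libraries. The deposited values are raw UMI counts per gene and barcode, made by the authors with Cell Ranger (7.2.0 in the submitters' processing notes, 6.1.2 in the matrix header) on danRer11; replicates were not pooled. The libraries held 34153824 and 52845050 UMIs.

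Of 32520 identifiers, 29201 took a symbol from a table of gene names, and symbols were used where 1 identifier matched (22887). The members are cells annotated SPC-I by the study; all 1999 annotated barcodes were found in the counts. The members, gene lists and comparisons were chosen with earlier results of these data known.

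For replicate 2, cells with 200 to 7000 genes and at most 5% mitochondrial UMIs were labelled by vote of 15 neighbours (30 principal components of log-normalised counts, 2000 variable genes without the 365 listed genes; scanpy 1.11.5, scikit-learn 1.9.0). Hiding labels in 10 parts returned SPC-I for 426 of 438 SPC-I cells (97.3%). Those cells and their voters are all of replicate 1, so this does not measure the transfer to replicate 2. Doublets were scored by the share of simulated pairs of cells among each cell's neighbours, and the 6% of cells with the highest scores were called, a preset share; they were kept, with their removal as an alternative. Cells of 3 clusters that held no annotated cell (1058 cells) got no stage, a choice made after seeing the data, and neither did 348 cells voted to 112 replicate 1 cells that pass these limits and are skipped within the stretch of barcodes the shortened annotation covers. Cluster numbers in replicate 2 were likewise voted.

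UMIs were summed per stage and scaled to CPM. The pseudocount was 1 CPM, the filter a mean of 10 CPM and the call a log2 fold of 1. The fold calls were checked on simulated counts in which all stages shared a profile, except for genes raised in SPC-I. That checks the script and is no test on the samples. Named genes were the 4 markers; of each list the highest, the largest and smallest folds and members of opposite direction; the 15 largest over the next stage; the 10 lowest; the 6 largest each way against each neighbour and between clusters, all past 1 in both libraries; and the study's list with hmgb1b, pcna and ddx4. Some genes that this rule names are not reported here. Further list members were named after their values were seen. Alternatives included TMM factors (edgeR 4.0.16).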

Additional observations from a re-analysis of the deposited data

Results flagged for a closer look

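Cells outside the comparisons also carried sycp3, whose detection does not set SPC-I apart. In replicate 2, 232 cells were voted SPC-I inside clusters without an annotated cell and were left without a stage. Their sycp3 level was 2343 CPM (1160 UMIs), against 4788 CPM in the SPC-I cells of replicate 2 that were used and 1723 CPM in its SPG-B cells. They held a median of 1445 UMIs, against 5932 in the SPC-I cells used, and their ddx4 level was 1462 CPM, against 441 CPM. Their dmc1, meiob and tex11 levels were 739, 54.5 and 111 CPM, against 1576, 133 and 304 CPM in the SPC-I cells used. In SPG-B these were 286, 37.2 and 104 CPM. The gene isg15 stood at 487 CPM, against 75.2 CPM in the SPC-I cells used and 107 CPM in SPG-B. Which stage these cells belong to was not tested.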

How the results depend on the processing

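No paired analysis was possible because the samples form 1 group. Of the marker, leading, lowest and study-listed genes with hmgb1b and ddx4, 32 were past a log2 fold of 1 against the other stages. They stayed past it in every setting that kept them, except 1 by UMIs per cell. The leading and lowest genes were chosen as past 1 in both libraries, so replicate 2 was no check on them. The main counts were 676 higher and 1821 lower against the other stages, 57 above every stage, 1752 and 955 against SPG-B, 1028 and 1855 against SPC-II, and 1609 and 710 between clusters. In the same order, a filter at 1 CPM gave 1309, 3196, 151, 3427, 1828, 2312 and 3133, and one at 50 CPM 333, 759, 33, 803, 300.0, 436 and 842, since they change how many genes are counted. A pseudocount of 10 CPM gave 441, 1179, 1054, 504, 630.0 and 1219, without a move past 1.5 times for the genes above every stage, and 873 and 348 between clusters. UMIs per cell gave 207 higher against the other stages, 12 above every stage and 1542 lower than SPG-B. TMM factors gave 1587 higher and 1159 lower than SPC-II, and thinning to 1000 UMIs 1826 higher than SPC-II. In replicate 2 the medians were 5932 UMIs and 2398 genes per SPC-I cell. The cause of these moves was otherwise not tested. The shortened annotation used here covers 1 library, so no setting gives a spread between labelled replicates.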

Other observations

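Genes that were low in SPC-I against every other stage were few. In replicate 1, 37 genes lay at least 1 log2 unit below the lowest other stage, and 12 of them did so in replicate 2 as well. This set was chosen after its values were seen. Those with a symbol were ccnb3, nrm, dnajb1b, nusap1, cdca3, wdr62, ubxn1, ccnf and rell1. The spindle gene nusap1 had 89.6 CPM in SPC-I, against 294 to 1564 CPM in the other stages of replicate 1, and the heat shock cochaperone gene dnajb1b 25.7 CPM, against 104 to 394 CPM.

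Some genes listed for spermatogonia were not highest there. The transcription factor gene e2f5 had 542 CPM in SPC-I of replicate 1 and 475 CPM in replicate 2, against 493 CPM in SPG-B, 116 CPM in SPG-Aun and 52.1 CPM in SPG-Ad of replicate 1. The gene ripply2 had 341 and 225 CPM in SPC-I, against 169 and 129 CPM in SPG-B.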
